A study of Mus musculus with 4 samples.

Results

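The insulin-like growth factor (IGF) genes described here were 9 of the 19465 genes measured, namely the ligands Igf1 and Igf2, the receptors Igf1r and Igf2r, and the binding proteins Igfbp2, Igfbp3, Igfbp4, Igfbp5 and Igfbp7. They were chosen by symbol from the feature lists, and all 9 were found. Expression was measured with Visium, in which sections lie on a slide printed with spots of position barcodes and captured molecules are counted by their unique molecular identifiers (UMIs). The sections were cut from formalin-fixed, paraffin-embedded whole heads of wild-type C57BL/6J mouse embryos, at E14.5 (2 capture areas) and E15.5 (2 capture areas). At each stage, replicate 1 had an area to itself with 1 section, and replicates 2, 3 and 4 shared an area with 3 sections, which are called A, B and C because the labels do not say which is which. No treatment or mutant was involved, so the design allows a comparison of the stages and of the tissues within a section. Most spots cover more than a single cell and often more than a single cell type, so fewer cells of a type and less RNA per cell cannot be told apart.

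IGF-1 and IGF-2 are secreted growth factors that promote growth and survival through the receptor tyrosine kinase encoded by Igf1r. The product of Igf2r, which also carries mannose 6-phosphate ligands, binds IGF-2 and takes it up for breakdown. Binding proteins hold most of the secreted IGF outside cells and either limit or prolong its action, and IGFBP-7 binds IGF only weakly. In the mouse embryo Igf2 is transcribed mainly from the paternal allele and Igf2r mainly from the maternal allele, and IGFs are known regulators of fetal muscle and bone growth.

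The 4 areas held 6357 tissue spots, with a median of 6752 UMIs per spot in the E14.5 replicate 1 area and between 45058.5 and 64051 in the others. Section A of E14.5 was shallow too, with a median of 10037.5 UMIs. The 9 genes together took 0.680% of all UMIs, from 22787 UMIs of Igf1r to 762310 UMIs of Igf2. Levels are UMIs scaled to the summed UMIs of the same spots (counts per 1e6, CPM), and they are compared for 1 gene between places, not between genes. Between 540 and 1388 spot barcodes were shared by any 2 areas, as the arrays use a common barcode set.

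Tissues were located by their marker genes. In each section, the 5% of spots with the highest mean score of a tissue's markers were taken as marker-high spots, and the remaining spots of the same section were the comparison. Of 20 tissues listed, 19 had at least 3 markers in the feature list and 17 were present in all 4 areas. The summed markers were between 2.56 times (endothelium) and 22.0 times (retina) as high inside as outside in these 17 tissues. Presence was a cut at 1/5 of the marker level of the highest section. By this cut lens and choroid plexus were present in 3 sections each. Lens markers also reached 10661.5 CPM in the marker-high spots of E15.5 replicate 1 and 13985 CPM in those of section B of E15.5. Endothelial, mural and macrophage spots overlapped (74 of 313 endothelial spots were also mural spots), whereas 15 of 313 muscle spots were also mural spots. A gene was counted as higher in a tissue when its level was at least 1.5 times that of the other spots in all 4 areas, and as lower when it was at most 1/1.5 of it in all 4. These are descriptions without a test, since the spots were picked from the sections in which the genes were then read.

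By this rule 6 of the 153 pairs of gene and tissue were higher and 22 were lower. Over all 8680 genes of at least 20 CPM, 2.33% of pairs were higher and 6.03% were lower. The plot of ratios by tissue shows 3 groups. Igf2, Igf2r and Igfbp3 were high in skeletal muscle spots, Igf1 in vascular spots, and all but Igf1r were low in spots of GABAergic neurons.

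**Figure D1:**
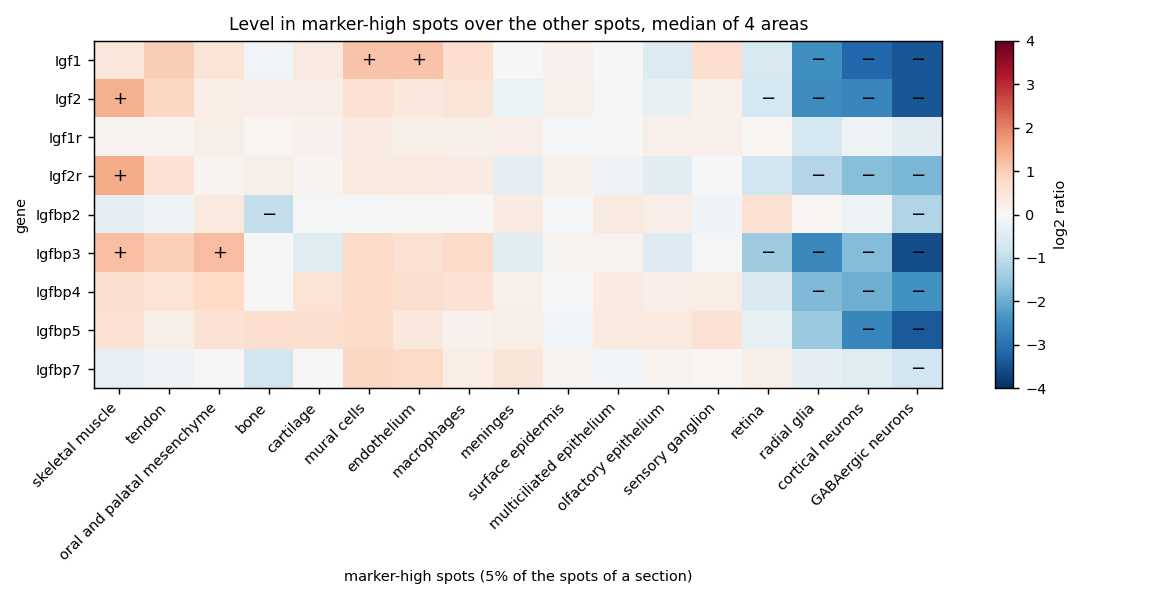
Ratio of the level in marker-high spots to the level in the other spots of the same sections, as the log2 of the median over 4 areas, for the 9 genes (rows) and the 17 tissues (columns). Plus and minus signs mark pairs that were higher (6) or lower (22) in all 4 areas, and the minus signs lie in the neural, retina and bone columns.

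Igf2 was highest in skeletal muscle spots in all 4 areas. These spots held 5695 CPM in E14.5 replicate 1, 6393 CPM in E14.5 replicates 2, 3 and 4, 5752 CPM in E15.5 replicate 1 and 5610 CPM in E15.5 replicates 2, 3 and 4. The level in muscle spots thus varied little between areas, and the ratio to the other spots went from 3.90 and 2.72 at E14.5 to 2.69 and 1.85 at E15.5 with the level of those other spots. Over the 8 sections the ratio was 2.48 ± 0.74 (SD, n = 8), and it was above 1 in 8 of 8. Spots of tendon markers (Scx, Tnmd and Mkx) came next in every area, with 3709, 4709, 3997 and 4014 CPM in the same order of areas. A clustering of the spots into 12 groups, computed without the IGF genes, also had its highest Igf2 in a muscle group: the group led by Ckm, Myh8 and Tnnt3 (639 spots) had 5468 CPM of Igf2, between 5194 and 6001 in the 4 areas, against 3574 CPM in the next, a group led by the skin genes Krt77, Krtdap and Lor.

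Igf2r, the clearance receptor, had the same leading tissue. Its level in muscle spots was 615, 844, 712 and 819 CPM in the 4 areas, or 3.22, 2.86, 2.74 and 1.96 times that of the other spots. The mean ratio over sections was 2.49 ± 0.54 (SD, n = 8). Tendon spots again came second, with 404 to 508 CPM, and no tendon value reached the lowest muscle value.

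Igfbp3, the main IGF carrier of adult serum, was high in both muscle spots and spots of oral and palatal mesenchyme, which were marked by Osr2, Pax9, Shox2 and Barx1. In muscle spots it had 493, 656, 508 and 646 CPM (ratios of 3.60, 2.503, 2.12 and 1.86). In oral and palatal spots it had 529, 674, 545 and 572 CPM (ratios of 4.10, 2.48, 2.22 and 1.59). The order of both tissues was not the same in all areas, as oral and palatal spots led in 3 and muscle spots in E15.5 replicates 2, 3 and 4, and the values over the sections overlapped (588 ± 125 against 570 ± 126 CPM, SD, n = 8). These were the only higher pairs of the 9 genes in muscle (3 of 9, against 3.95% of all genes) and in oral and palatal spots (1 of 9, against 1.22%).

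Muscle spots differed in depth from the other spots, in a direction that changed between areas. Their median was 3265 UMIs against 7138 in E14.5 replicate 1, but 77884 against 43409 in E14.5 replicates 2, 3 and 4, 103373 against 62458.5 in E15.5 replicate 1 and 66532 against 44228.5 in E15.5 replicates 2, 3 and 4. When every spot was thinned to 2000 UMIs and the marker-high spots were picked again, the median ratio in muscle spots was 2.46 for Igf2, 2.19 for Igf2r and 2.002 for Igfbp3. In oral and palatal spots Igfbp3 had 1.79 and no longer met the rule, which it also missed with 2.5% of spots (2.35). In the 266 muscle spots that belonged to no other tissue it was 2.70, 2.80 and 2.25.

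The levels also fell with distance from the muscle spots, counted in steps between touching spots. Igf2 fell at every step up to the ring of 5 to 8 steps in 4 of 4 areas, for instance from 6393 to 4856, 4043, 3523 and 2881 CPM in E14.5 replicates 2, 3 and 4. Igf2r did so in 4 of 4 areas as well, and its level in muscle spots was 1.57 to 1.90 times that at 2 steps. Igfbp3 fell over the first 2 steps in 4 of 4 areas, but at every step up to 5 to 8 steps in only 2 of 4. In E15.5 replicate 1, for instance, it rose again at 3 to 4 steps, from 341 to 468 CPM. From oral and palatal spots, Igfbp3 fell at every step up to 5 to 8 steps in 4 of 4 areas, from 674 to 558, 426, 325 and 294 CPM in E14.5 replicates 2, 3 and 4. Igfbp4 did the same, and Igf1r showed no such order in any area.

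**Figure D2:**
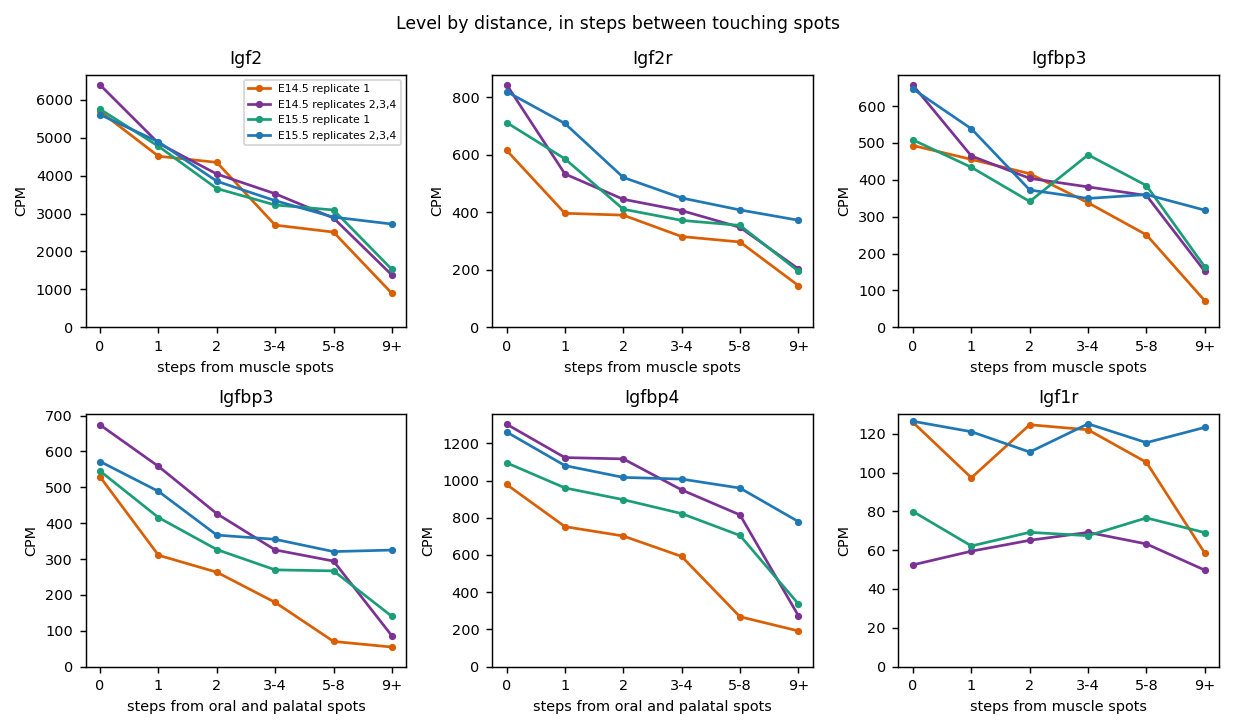
Level (CPM) by the number of steps between touching spots from the nearest muscle spot (Igf2, Igf2r, Igfbp3, Igf1r) or the nearest oral and palatal spot (Igfbp3, Igfbp4), with 1 line for each of the 4 areas. Igf2 and Igf2r fall away from muscle spots in all 4 areas, while the lines of Igf1r do not order by distance.

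**Figure D3:**
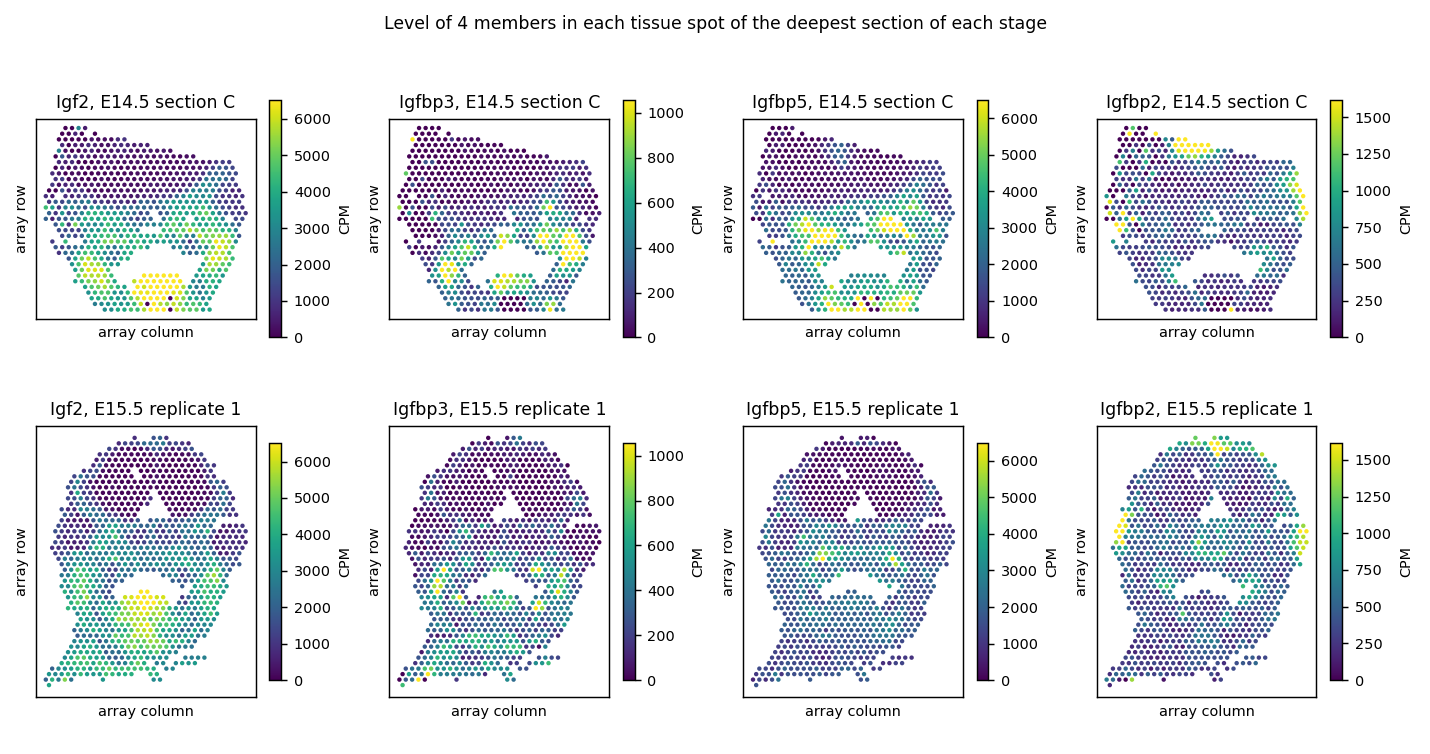
Level (CPM, colour cut at the 98th percentile) of Igf2, Igfbp3, Igfbp5 and Igfbp2 in each tissue spot of the deepest section of each stage, at its array row and column. In both sections Igf2 is brightest just below the large central gap, Igf2, Igfbp3 and Igfbp5 are dark in the upper part, and Igfbp2 is brightest in a few patches at the edges.

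Igf2, Igf2r and Igfbp3 shared muscle spots as a place of high level, so their promoters are shown, as RefSeq gives them for GRCm38.p6. Each window holds the 250 bases before a transcription start, written from 5′ to 3′ on the strand of the gene. Igf2 has 4 starts in that table, of which the most upstream and the most downstream are shown. Capitals mark CANNTG, the core letters of the E-box to which basic helix-loop-helix factors such as the myogenic factors bind.
Igf2, most upstream start (chr7:142666817-142667066, minus strand): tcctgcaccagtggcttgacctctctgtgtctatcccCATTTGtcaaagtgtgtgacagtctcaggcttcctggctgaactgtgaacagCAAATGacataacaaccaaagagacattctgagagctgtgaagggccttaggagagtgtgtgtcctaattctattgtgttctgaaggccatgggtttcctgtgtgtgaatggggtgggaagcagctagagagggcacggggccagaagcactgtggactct
Igf2, most downstream start (chr7:142657497-142657746, minus strand): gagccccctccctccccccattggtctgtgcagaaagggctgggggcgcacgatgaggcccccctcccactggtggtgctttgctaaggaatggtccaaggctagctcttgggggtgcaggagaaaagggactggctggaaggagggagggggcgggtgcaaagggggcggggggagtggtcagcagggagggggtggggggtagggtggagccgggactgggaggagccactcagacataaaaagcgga
Igf2r (chr17:12769707-12769956, minus strand): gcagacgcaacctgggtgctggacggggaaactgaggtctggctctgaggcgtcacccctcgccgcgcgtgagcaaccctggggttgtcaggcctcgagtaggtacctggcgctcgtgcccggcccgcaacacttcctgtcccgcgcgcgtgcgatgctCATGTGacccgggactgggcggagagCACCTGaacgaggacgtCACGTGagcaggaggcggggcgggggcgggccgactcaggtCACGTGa
Igfbp3 (chr11:7213924-7214173, minus strand): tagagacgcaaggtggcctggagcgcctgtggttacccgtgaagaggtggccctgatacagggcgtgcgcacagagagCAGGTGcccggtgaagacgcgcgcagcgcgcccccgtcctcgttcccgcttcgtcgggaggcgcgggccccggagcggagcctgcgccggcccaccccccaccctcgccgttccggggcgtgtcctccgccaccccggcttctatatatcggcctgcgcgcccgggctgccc
CANNTG occurred 2 times in the most upstream Igf2 window, 0 times in its other 3 windows, 4 times in that of Igf2r and 1 time in that of Igfbp3. Of all 32851 promoter windows of this length, 66.2% held it, with a median of 1. CAGCTG, a form of CANNTG that reads the same on both strands, was in none of the 6 windows and in 13.0% of all windows.

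Igf1, the ligand known for its postnatal role under growth hormone, was the only one of the 9 genes that was higher in vascular spots. In endothelial spots it had 719 CPM in E14.5 replicate 1, 219 CPM in E14.5 replicates 2, 3 and 4, 276 CPM in E15.5 replicate 1 and 355 CPM in E15.5 replicates 2, 3 and 4. In spots of mural cells (Rgs5, Abcc9, Kcnj8 and Pdgfrb) it had 678, 206, 268 and 397 CPM in the same order. The ratios to the other spots were 1.72 to 2.67 in endothelial and 1.77 to 2.48 in mural spots, and over sections they were 2.11 ± 0.55 and 2.08 ± 0.45 (SD, n = 8). Of all genes, 1.12% were higher in endothelial and 1.01% in mural spots. Endothelial spots were shallower than the other spots in all 4 areas (medians of 3218 against 7048, 38160 against 45296, 52047 against 64176 and 39473.5 against 45764.5 UMIs). So were mural spots (3757 against 6958, 38160 against 45517, 60532 against 64220.5 and 43435 against 45581.5 UMIs). With spots thinned to 2000 UMIs the median ratios were 1.40 in both tissues and neither pair met the rule. The part of depth in the unthinned ratios was not tested. Macrophage spots came close (1.69, 2.40, 1.52 and 1.44 times), and some of these spots were shared. So did tendon spots (1.33 to 2.60 times, median 1.99) and sensory ganglion spots (1.40 to 2.42 times, median 1.59). In spots of no other tissue the ratios ran from 1.85 to 3.39 for the 101 endothelial spots and from 1.29 to 2.44 for the 111 mural spots. They ran from 1.82 to 3.81 for the 68 sensory ganglion spots, which thus met the rule in this setting. For the 175 tendon spots they ran from 1.36 to 2.58 and for the 109 macrophage spots from 1.39 to 2.83.

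In E14.5 replicate 1 Igf1 was highest in muscle spots, with 999.8 CPM, whereas muscle spots of the other areas had 103, 234.1 and 181 CPM and ranked below the vascular spots. In E15.5 replicate 1 tendon spots led, with 302 CPM. In the E14.5 replicate 1 area the level also moved with depth. With the spots divided into 4 equal classes by depth, the shallowest (median 1183.5 UMIs) had 1736 CPM of Igf1 and the deepest (median 32374 UMIs) had 121 CPM, which amounted to 2.12, 4.30, 4.96 and 4.64 Igf1 UMIs per spot from the shallowest to the deepest class. In section A of E14.5, with classes of similar depth (medians from 1005.5 to 31384.5 UMIs), the levels were 145, 85.3, 116 and 114 CPM and the UMIs per spot were 0.145, 0.422, 1.98 and 3.72. Igf2 also fell with depth in E14.5 replicate 1, from 4184 to 3812, 2275 and 976 CPM, but its UMIs per spot rose from 5.10 to 37.5. In that area the Igf1 count per spot thus changed little over the 3 deeper classes, and the part of depth in the Igf1 levels was not tested.

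**Figure D4:**
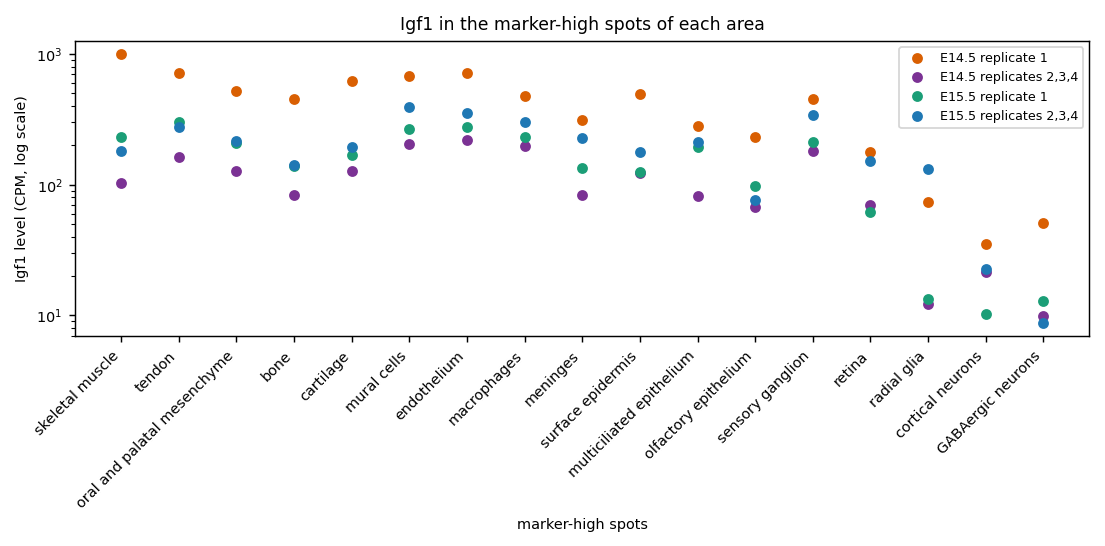
Level of Igf1 (CPM, log axis) in the marker-high spots of 17 tissues, with 1 point for each of the 4 areas. The E14.5 replicate 1 points are the highest in 16 of 17 tissues, with 999.8 CPM in muscle spots, and all points of cortical and GABAergic neuron spots lie at or below 51.3 CPM.

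Igf1r, the signalling receptor, met the rule in no tissue. Over the 17 tissues its level went from 38.6 to 139 CPM in E14.5 replicate 1, from 40.7 to 71.9 CPM in E14.5 replicates 2, 3 and 4, from 38.3 to 84.9 CPM in E15.5 replicate 1 and from 93.4 to 155 CPM in E15.5 replicates 2, 3 and 4. Cortical neuron spots, in which both ligands were low, had 49.4, 63.6, 47.5 and 135 CPM, or 0.64, 1.13, 0.66 and 1.10 times the other spots. Over sections, some of which share a library, the ratio was 0.94 ± 0.26 (SD, n = 7). Cortical neuron spots were deeper than the other spots in the replicate 1 areas (medians of 39165 against 5910 and 82757 against 63522.5 UMIs). They were shallower in the areas of replicates 2, 3 and 4 (20715 against 45425 and 22469.5 against 46293.5 UMIs). The part of depth in these ratios was not tested. The leading tissue for Igf1r changed with the area, from tendon to mural, tendon and meningeal spots in the same order of areas.

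In spots of GABAergic neurons (Gad1, Gad2, Slc32a1 and Sp9), 8 of the 9 genes were lower, against 18.4% of all genes. Igf2 had 396, 274, 217 and 239 CPM there, Igfbp3 22.1, 26.0, 18.6 and 27.2 CPM, and Igf1 51.3, 9.91, 12.9 and 8.76 CPM. In spots of cortical neurons (Neurod2, Neurod6, Tbr1 and Fezf2), 6 of 9 were lower, against 17.7% of all genes, and the 3 that were not were Igf1r, Igfbp2 and Igfbp7. In radial glia spots 5 of 9 were lower, against 9.54%. With spots thinned to 2000 UMIs, Igf2 (median ratio 0.17, thinned 0.52), Igf2r (0.45, thinned 0.67) and Igfbp4 (0.30, thinned 0.73) no longer met the rule in radial glia spots, nor did Igf1, Igf2r and Igfbp4 with 10% of spots. Igf2r also missed the rule in radial glia spots with 2.5% of spots (0.42). In GABAergic neuron spots thinning removed Igfbp2 (0.63) and Igfbp7 (0.84). Igfbp7 also missed the rule there with 2.5% of spots (0.55), with 10% (0.62) and in spots of no other tissue (0.55). The depletion differed in size: the median ratio in GABAergic neuron spots was 0.08 for Igfbp3, 0.09 for Igf1 and Igf2, 0.10 for Igfbp5, 0.19 for Igfbp4 and 0.28 for Igf2r. In retina spots Igf2 and Igfbp3 were lower, with median ratios of 0.61 and 0.37, against 3.89% of all genes. Igf2 no longer met the rule in retina spots with 10% of spots (0.76), with thinning (0.61) or in spots of no other tissue (0.58).

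Igfbp2, a binding protein abundant in the fetus, was lower in bone spots in all 4 areas, with 359, 254, 241 and 252 CPM or 0.60, 0.52, 0.52 and 0.45 times the other spots, where 11.2% of all genes were lower, close to the 1 of 9 here. It missed the rule in bone spots with 10% of spots (0.62) and with thinning (0.59). It was also lower in GABAergic neuron spots (0.43 ± 0.06 over sections, SD, n = 7) but not in cortical neuron spots, where it had 473, 584, 445 and 430 CPM. In retina spots it had 875, 708, 598 and 1004 CPM, which was 1.54, 1.54, 1.35 and 1.91 times the other spots and missed the rule in 1 area. In the 3 sections that passed the cut for lens it had 892, 881 and 1009 CPM in lens spots, or 2.15 ± 0.17 times the other spots (SD, n = 3). Choroid plexus spots of 3 sections were uneven, with 477, 1552 and 722 CPM.

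Igfbp7 shared the lens and vascular spots. Lens spots had 351, 383 and 582 CPM, between 3.79 and 5.53 times the other spots of the same sections. Mural spots led the 17 tissues in all 4 areas, with 145, 150, 214 and 162 CPM, but the ratios of 2.498, 1.41, 2.11 and 1.44 met the rule in 2 areas only. Endothelial spots followed with ratios of 2.13, 1.36, 2.05 and 1.23.

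Igfbp4 and Igfbp5 had broad patterns outside the brain, and neither was higher in any of the 17 tissues. Igfbp4 had high levels in mural spots (1051, 1288, 1070 and 1320 CPM) and oral and palatal spots (979, 1303, 1096 and 1261 CPM), with ratios of 1.36 to 2.60 and 1.296 to 2.44. Igfbp5, which is bound by bone matrix, had 1563, 3421, 2327 and 2772 CPM in mural spots and 1470, 3565, 1959 and 1998 CPM in bone spots. In sensory ganglion spots, which passed the cut for presence in 5 sections, it reached 5486 CPM in section C of E14.5 and 4205 CPM in section C of E15.5. It had 1112, 1888 and 1710 CPM in the other 3 of these sections. The ganglion markers of these spots were also highest in both sections C, with 521 and 1029 CPM against 207 to 283 CPM, and their part in the Igfbp5 level was not tested. Sections that missed the cut were close to it, with 177, 192 and 200 CPM of these markers. Over the sections of all areas, Igfbp5 had 2880 ± 1872 CPM in ganglion spots (SD, n = 5). In mural and bone spots it had 2637 ± 983 and 2463 ± 942 CPM (SD, n = 8).

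After thinning to 2000 UMIs, the correlation over the spots of a section was highest for Igf2 and Igfbp5 (mean r of 0.51 over 8 sections, from 0.08 to 0.71), then Igf2 and Igfbp4 (0.41) and Igfbp4 and Igfbp5 (0.36). Igf2 and Igf2r gave 0.32, Igf2 and Igfbp3 0.32, and the highest value with Igf1r as a partner was 0.05. The spots of a section share a library, and these values are given without a test. Spatial clustering, measured as Moran's I between touching spots of a section, was 0.66 ± 0.15 for Igf2, 0.51 ± 0.16 for Igfbp5, 0.29 ± 0.13 for Igfbp4 and 0.24 ± 0.08 for Igfbp3 (SD, n = 8). It was 0.18 ± 0.11 for Igf1, 0.16 ± 0.05 for Igf2r, 0.14 ± 0.04 for Igfbp2, 0.04 ± 0.03 for Igfbp7 and -0.000873 ± 0.026 for Igf1r, against a median of 0.01 over 8680 genes. Without thinning all 9 values were higher, for instance 0.14 for Igf1r and 0.80 for Igf2, so the values hold for this depth. Igf1r and Igfbp7 had the fewest UMIs of the 9 genes (0.00811% and 0.0107% of all UMIs), so spots thinned to 2000 UMIs held few of either. The part of low counts in their correlations and Moran's I was not tested.

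Over the 12 spot groups and 4 areas (46 points that held spots), the genes with the most similar profile to each IGF gene were found among 8679 others by Pearson correlation of log2 CPM centred within each area. Points of an area share a library. They were Slc38a4 (0.98) and Col6a3 (0.98) for Igf2, Igf2 (0.96) and Col6a3 (0.96) for Igf1, and Cdkn1c (0.97) and Smtn (0.96) for Igf2r. For the binding proteins they were Pdgfa (0.96) and Fibin (0.96) for Igfbp3, Il11ra1 (0.98) and Creb3l2 (0.98) for Igfbp4, Ltbp1 (0.96) and Igfbp4 (0.96) for Igfbp5. The profiles of Igfbp2 and Igfbp7 were matched less closely, by Slc2a1 (0.76) and Igfbp7 (0.75), and by Cyyr1 (0.84) and Slc2a1 (0.82). Igf1r was matched by Fkbp8 (0.86) and Snrnp70 (0.86).

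For the comparison of stages, UMIs were summed over each area and tested with edgeR, 2 areas against 2. None of the 9 genes passed at an adjusted p of 0.1, and the same was true of every gene, as 0 of 15609 genes passed (0.0%), with 930 at an unadjusted p under 0.05 and 28 calls by DESeq2. By area, Igf2 had 1538 and 2650 CPM at E14.5 and 2413 and 3218 CPM at E15.5, a log2 fold change of 0.35 ± 0.35 (SE). Igf2r had 199 and 336 CPM at E14.5 and 295 and 446 CPM at E15.5 (0.40 ± 0.35), and Igfbp3 had 144 and 291 CPM against 261 and 368 CPM (0.45 ± 0.38). In each of these the stages overlapped. Igfbp4 had 422 and 751 CPM against 668 and 978 CPM (0.41 ± 0.37), and Igfbp5 had 805 and 2114 CPM against 1438 and 1887 CPM (0.11 ± 0.46). Igfbp2 (588 and 471 against 452 and 541 CPM) and Igfbp7 (60.4 and 108 against 106 and 115 CPM) had fold changes of -0.15 ± 0.26 and 0.32 ± 0.31.

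No gene of the 9 had both E15.5 areas above or below both E14.5 areas, whereas 21.6% of genes were above and 17.9% below. Within the pair of replicate 1 areas, 6 of the 9 were higher at E15.5, and within the other pair 8 of 9 were. Igf1 went in opposite directions in the pairs, with 286 CPM at E14.5 against 157 at E15.5 in replicate 1 and 87.9 against 211 in replicates 2, 3 and 4. Igf1r had 72.7 and 70.4 CPM in replicate 1 and 56.7 and 120 CPM in replicates 2, 3 and 4. The lowest adjusted p among the 9 genes was 0.77, for Igf1r, with a log2 fold change of 0.50 ± 0.29 (SE). Each pair shared a Space Ranger version, so that version was balanced between stages.

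**Figure D5:**
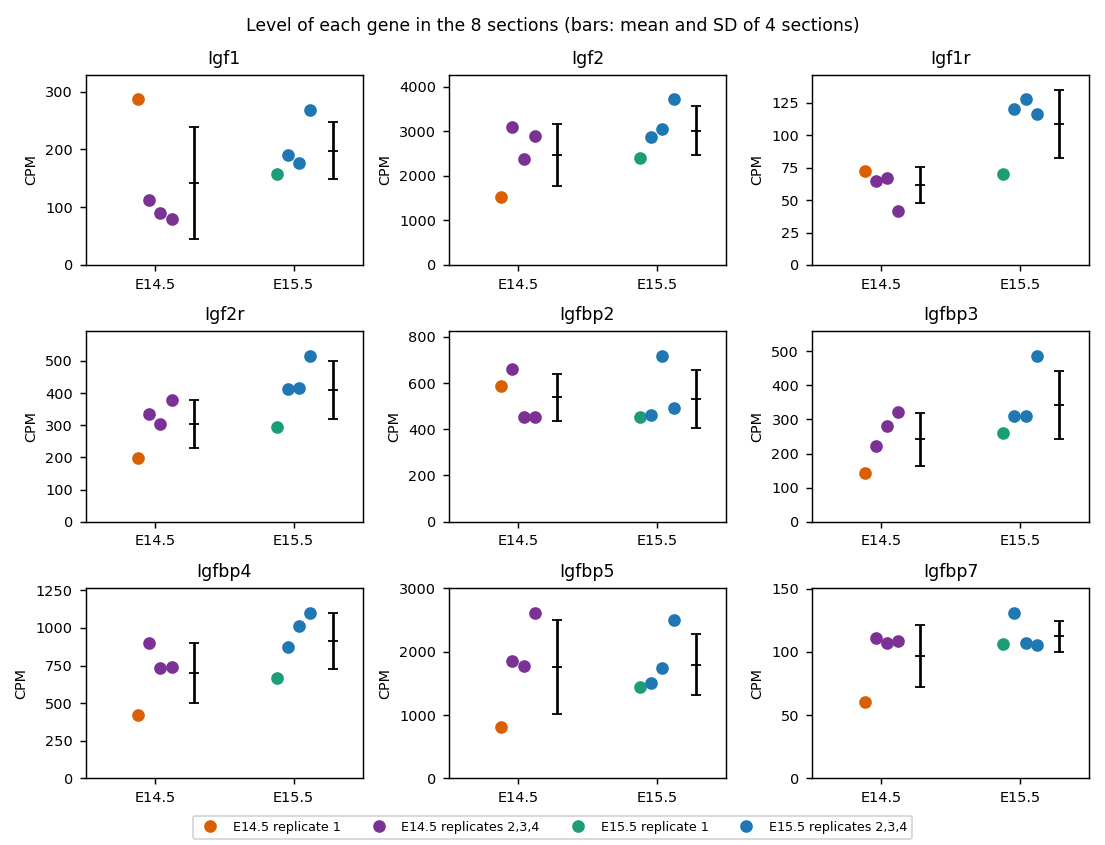
Level (CPM) of each of the 9 genes in the 4 sections of E14.5 and the 4 of E15.5, coloured by area, with the mean and SD of 4 sections as black bars. The E14.5 replicate 1 section is the lowest for Igf2, Igf2r, Igfbp3, Igfbp4, Igfbp5 and Igfbp7 and the highest for Igf1.

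Sections differed in their content of tissues, and the levels of several genes moved with the markers of brain and muscle. The summed cortical neuron markers ranged from 8.87 CPM in section C of E15.5, which had the highest Igf2 (3722 CPM), Igf2r (515 CPM), Igfbp3 (486 CPM) and Igfbp4 (1100 CPM), to 1043 CPM in E14.5 replicate 1, which had the lowest of each (1538, 199, 144 and 422 CPM). Over the 8 sections the rank correlation with these markers was -0.98 for Igf2r, -0.90 for Igfbp3 and Igfbp4, -0.83 for Igf2 and -0.69 for Igfbp5, against 0.02 for Igf1 and -0.17 for Igfbp2. With the summed muscle markers it was 0.83 for Igfbp3, 0.71 for Igf2r, 0.50 for Igfbp4 and 0.48 for Igf2. Sections on the same area are not independent libraries, and the part that section content has in the stage values was not tested.

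The stages were also compared within the marker-high spots of each of the 17 tissues, whose marker levels still differed between sections (bone markers from 4995 to 11484 CPM, for example). None of the 153 tests of an IGF gene passed, where 5 of 209724 tests of all genes passed (0.00238%). By edgeR, 7 of the 153 were at an unadjusted p under 0.05, as were 4470 of the 209724. In muscle spots, for which the levels stand above, the log2 fold change was -0.13 ± 0.26 for Igf2, 0.01 ± 0.29 for Igf2r and -0.05 ± 0.29 for Igfbp3 (SE). Over the tissues the median log2 fold change was -0.56 for Igf1, 0.46 for Igf1r, with 16 of 17 above 0, and between -0.28 and 0.18 for the other 7. The tissues come from the same 4 areas and share spots, so the 16 of 17 are not separate observations. Over whole areas Igf1r went from 72.7 to 70.4 CPM in replicate 1 and from 56.7 to 120 CPM in replicates 2, 3 and 4. With E14.5 replicates 2, 3 and 4 left out, 12 of the 153 tests passed (0.643% of all tests), of which 8 were negative changes of Igf1, and with E14.5 replicate 1 left out 3 passed (0.242% of all tests), among them a rise of Igf1 in radial glia spots (log2 fold change of 2.37). Radial glia spots were not among the tissues of these 8 changes, so the calls show no single tissue that turned direction. Over whole areas, Igf1 had 286 CPM in E14.5 replicate 1 and 87.9 CPM in E14.5 replicates 2, 3 and 4. At E15.5 it had 157 and 211 CPM, so its direction over whole areas turned with the E14.5 area used.

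Of 29 other genes of the pathway, 28 were in the feature list and 26 were tested over whole areas, and 0 passed in either direction, with 2 at an unadjusted p under 0.05. The largest log2 fold changes were those of Irs4, an adaptor of the insulin and IGF receptors (-1.74 ± 0.71, SE), and of Igfbpl1, a relative of the binding proteins (-1.0004 ± 0.59). Irs4 had 1.42 and 8.27 CPM at E14.5 and 1.60 and 1.59 CPM at E15.5, so 1 area set its value. Igfbpl1 had 678 and 389 CPM against 442 and 108 CPM, and the stages overlapped. Shc1, another adaptor, had 83.9 and 98.7 CPM against 124 and 166 CPM (0.60 ± 0.25), and the imprinted growth inhibitor Cdkn1c had 1167 and 2617 CPM against 2692 and 3173 CPM (0.55 ± 0.41), both with no overlap. Their adjusted p was 0.77 and 0.78 by edgeR. Of all genes of at least 20 CPM, 21.6% also had both E15.5 areas above both E14.5 areas.

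Within tissues, 1 of 390 tests of these genes passed, against 5 of 209724 tests of all genes. All 5 were negative changes in GABAergic neuron spots, where 11261 genes were tested. Dlk1, an imprinted growth regulator of the Notch ligand family, had 380.6 and 380.6 CPM in GABAergic neuron spots at E14.5 and 151 and 158 CPM at E15.5, a log2 fold change of -1.33 ± 0.23 (SE, adjusted p = 0.095 by edgeR). It was negative under all 10 alternatives run and passed in 6 of them, and the adjusted p ran from 0.000181 to 0.999. It did not pass with 10% of spots (0.999), without E14.5 replicate 1 (0.16), without E15.5 replicate 1 (0.24) or without E15.5 replicates 2, 3 and 4 (0.12).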

How the data were processed

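Visium data of wild-type mouse heads were used from 4 capture areas. As deposited by the authors, the matrices hold whole UMI counts without normalization, and per the file headers they come from Space Ranger 2.0.0, or 1.3.1 where an area held replicate 1 alone. The submitters' processing notes name mm10. The probe set behind the counts is not given in the sources used here, and counts of a gene cannot be compared with those of another gene per length. The 19 barcodes off tissue were left out, and no other filter on spots was used. Sections were separated as groups of at least 100 touching spots, k-means on the positions separated sections that touched, and 88 spots were outside any section.

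The 9 genes and all lists were chosen with earlier results of these data known. All 9 genes are named, with the 2 genes of the most similar profile for each and, as no pathway gene passed, the 4 pathway genes with the largest log2 fold change. Dlk1 was named for its call, after its values were seen. Positions in GENCODE M21 (GRCm38) are chr10:87858265-87937042 for Igf1, chr7:142650766-142666816 for Igf2, chr7:67952827-68233668 for Igf1r, chr17:12682406-12769664 for Igf2r, chr1:72824503-72852474 for Igfbp2, chr11:7206086-7213923 for Igfbp3, chr11:99041244-99054392 for Igfbp4, chr1:72857932-72874884 for Igfbp5 and chr5:77349240-77408041 for Igfbp7, all protein-coding.

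The markers of retina and 1 spot group are not reported here. Marker scores are means of log-normalized counts, z-scored within a section. A tissue was taken as present in a section whose summed marker CPM in these spots reached at least 1/5 of the highest section's. Dermal mesenchyme had 2 markers in the feature list and was not used, and H19 and Twist2 were not analysed here. Stages were compared with edgeR 4.0.16 (quasi-likelihood test, TMM, its default filter) in R 4.3.3, with Benjamini-Hochberg adjustment over all genes of a fit and a threshold of 0.1. The samples are capture areas and p-values measure only the spread between them. Spot groups came from k-means with 12 centres on 30 principal components of 2000 variable genes. Moran's I used log2 values with 1 added. Thinning to 2000 UMIs left out 450 shallower spots. The scripts were tested on simulated data. Spots of no other tissue were an alternative chosen after seeing the data.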

Additional observations from a re-analysis of the deposited data

Results flagged for a closer look

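Of 18 groups of 4 sections, 4 held a section far from the other 3, where chance gives about 1 in 20 for independent samples and 7.75% of all gene and stage groups did. At each stage 3 of the 4 sections share a capture area and library, and 2 of the 4 were the E14.5 section with an area to itself. Igf1 was at 286 CPM in the E14.5 replicate 1 section, against 79.8 to 113 CPM in the others of that stage. Igfbp7 was at 60.4 CPM in the same section and at 131 CPM in section A of E15.5, the section with the highest lens markers (5616 CPM). Igfbp2 was at 717 CPM in section B of E15.5.

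In 15 of 153 pairs of gene and tissue, both E14.5 areas lay on one side of a ratio of 1 and both E15.5 areas on the other. Of all gene and tissue pairs 6.02% did so. This difference between stages was not tested. The values are mean log2 ratios at E14.5 minus those at E15.5. In surface epidermis spots 5 genes had ratios above 1 at E14.5 and below 1 at E15.5, with differences of 0.95 for Igf1, 0.95 for Igf1r, 0.65 for Igfbp3, 0.53 for Igfbp4 and 0.66 for Igfbp5. In bone spots it was 0.90 for Igfbp3 and 0.72 for Igfbp4. In oral and palatal mesenchyme spots it was 0.66 for Igf2r and 0.18 for Igfbp7, and in sensory ganglion spots 0.30 for Igf2r and 0.60 for Igfbp3. Igfbp2 in endothelial spots (0.56) and Igfbp7 in cartilage spots (0.0701) went the same way. In multiciliated epithelium spots the difference was -0.24 for Igf1 and -0.29 for Igf1r.

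Barcodes off tissue, which no comparison used, held 667 UMIs of the 9 genes in 8 barcodes of E14.5 replicates 2, 3 and 4 and 2515 UMIs in 11 barcodes of E15.5 replicates 2, 3 and 4, which was 0.318% and 0.713% of the 209555 and 352936 UMIs of these barcodes, against 0.680% in tissue spots. The replicate 1 areas had 0 such barcodes.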

How the results depend on the processing

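Whole-area stage calls (0 genes) became 28 with DESeq2, and ranged from 0 to 78 when 1 area was left out, with 78 without E15.5 replicate 1. Tissue-spot calls (5) became 127 with DESeq2, 920 with no filter, 20 with 2.5% of spots, 0 with 10% of spots (6173 tests at an unadjusted p under 0.05) and 171 to 1370 with 1 area left out. With a replicate block they were 573. Of the 153 IGF tests in tissue spots, 2 passed with no filter and 2 without E15.5 replicate 1, and none with the block. The labels tie no animal, batch or day to a replicate number, although areas of the same number shared a Space Ranger version and a layout, and the deviations of the replicate 1 areas from their stage means correlated at 0.25 over 15609 genes.

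Higher pairs of gene and tissue (6) became 3 with spots thinned to 2000 UMIs, and numbered 6 to 16 with 1 area left out (16 without E15.5 replicates 2, 3 and 4). Lower pairs (22) numbered 16 to 24. Of the 28 pairs, 25 were kept with 2.5% of spots, 22 with 10%, 18 with thinning and 25 in spots of no other tissue, and all 28 stayed on their side of 1. The median Moran's I of the 9 genes (0.18) became 0.12 at 1000 UMIs and 0.61 without thinning.

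None of the IGF stage changes over whole areas passed under any of 11 alternatives, but several turned sign. Igf1 became 0.14 with the replicate block and 0.42 with sections as samples, and Igfbp5 became -0.056 with sections as samples. In muscle spots Igf2r became -0.11 with 2.5% of spots. In retina spots Igfbp2 became 0.0182 without TMM, 0.30 with 2.5% and 0.0323 with 10% of spots. In mural spots Igfbp4 became 0.0292, 0.00884 and 0.11 under these 3 settings, and Igfbp5 became 0.0287 without TMM and 0.10 with the replicate block. With 1 area left out, the whole-area values ran from -0.66 to 0.96 for Igf1, -0.017 to 0.85 for Igf2, -0.45 to 1.03 for Igfbp5 and -0.0676 to 0.85 for Igfbp7. In muscle spots they ran from -0.23 to 0.0122 for Igf2, -0.20 to 0.33 for Igf2r and -0.25 to 0.24 for Igfbp3. In mural spots they ran from -1.03 to 0.63 for Igf1, -0.19 to 0.18 for Igfbp4 and -0.49 to 0.70 for Igfbp5, in oral and palatal spots from -0.39 to 0.57 for Igf1r and in retina spots from -0.43 to 0.31 for Igfbp2. The cause was not tested. A stage with 1 area left is assumed to vary like the other stage. The 2 areas per stage and the shallow E14.5 replicate 1 area limit what a stage comparison can show.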

Other observations

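A spot group led by the lens genes Bfsp1, Crygb and Crygc held 573 spots, 297 of them in E14.5 replicate 1, whose section had 1.49 CPM of the summed lens markers. Igf1 there was 615 CPM, between 49.2 and 1696 CPM in the 4 areas.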
